A study of Sus scrofa with 10 samples.

Results

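The 10 genes described here encode 4 ERBB receptor tyrosine kinases (ERBB4, ERBB2, ERBB3, EGFR), 3 of their ligands (NRG1, NRG4, HBEGF) and 3 proteins that restrain the receptors (ERRFI1, LRIG1, RNF41). They were found by gene name among the 35670 gene identifiers of the deposited tables, and 10 of 10 were present and passed the filter on low counts. The tables hold nuclear RNA of sorted cardiomyocytes from hearts of WT minipigs (Sus scrofa), sequenced as 10 libraries. DOCA plus JK07 was given in 3 libraries (8 to 10). DOCA alone was given in 2 libraries (6 and 7), and the 5 control libraries (1 to 5) received phosphate-buffered saline (PBS). DOCA is deoxycorticosterone acetate, a corticosteroid that activates the mineralocorticoid receptor, and the title of the series calls JK07 an ERBB4 agonist. That title places the work in atrial remodeling and atrial fibrillation. The sources used here gave no chamber, dose, time or age. They also did not state whether each library came from its own animal, so the p-values reflect only how these libraries vary, and that variation may be technical.

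ERBB receptors sit in the cell membrane and pair up when a ligand of the epidermal growth factor (EGF) family binds. NRG1 and NRG4 bind ERBB4, NRG1 also binds ERBB3, and HBEGF binds EGFR and ERBB4. ERBB2 has no known ligand and acts as a partner, while ERBB3 has little kinase activity of its own. In the adult heart, neuregulin released by endothelial cells acts on ERBB4 and ERBB2 of the cardiomyocyte, where the pair is known for supporting growth and survival. ERRFI1 (also called MIG6) binds the kinase domain of EGFR and ERBB2 and blocks it, LRIG1 promotes receptor degradation, and RNF41 (also called NRDP1) is a ubiquitin ligase for ERBB3.

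ERRFI1 stood 4.35-fold higher in DOCA than in control, and in DOCA plus JK07 it stood at 0.157 times its DOCA level. NRG4 was listed at 0 in both DOCA libraries and was measured in all 8 others. ERBB4 itself averaged 44.5 ± 16.1 CPM in DOCA plus JK07 (SD, n = 3), 27.1 ± 10.4 CPM in DOCA (SD, n = 2) and 51.4 ± 17.0 CPM in control (SD, n = 5), and passed the test in none of the 3 comparisons. CPM is the estimated count scaled to a common library total after TMM scaling, which adjusts for a few very abundant genes. The test was edgeR's quasi-likelihood F test over 17251 genes, called at a Benjamini-Hochberg adjusted p under 0.05.

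For DOCA against control, 1 of the 10 genes passed higher (ERRFI1), 1 lower (NRG4) and 8 did not pass, where 24.8% of all tested genes passed, 5.65% higher and 19.1% lower. For DOCA plus JK07 against DOCA, 1 passed higher (NRG4), 1 lower (ERRFI1) and 8 did not pass, where 16.9% of all tested genes passed, 14.6% higher and 2.26% lower. In DOCA plus JK07 against control, edgeR called 0 of the 10 genes and 0 of all tested genes, a background of 0%. At an unadjusted p under 0.05 that comparison held 1 of the 10 genes (NRG1) and 803 of all tested genes. DESeq2 called 115 genes in it, and limma with a quality weight for each library called 8, of which 0 and 0 were among the 10. The counts of called members lay near those backgrounds. The first 2 comparisons share the DOCA libraries, so their opposite signs are not separate observations.

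The median log2 change of the 10 genes was 0.43 for DOCA against control, against -0.63 over all tested genes. It was -0.23 for DOCA plus JK07 against DOCA, against 0.55 over all tested genes, and 0.081 for DOCA plus JK07 against control, against -0.00055. On log2(TPM + 1), library totals include ribosomal RNA, as in CPM, but without TMM scaling. On that scale ERBB2 (-0.047), EGFR (-0.29), LRIG1 (-0.15) and RNF41 (-0.30) had the opposite sign to their CPM changes for DOCA against control. None of these 4 genes passed on either scale. In CPM the 2 groups did not overlap for 4 of the 10 genes in DOCA against control (ERBB2, NRG4, HBEGF, ERRFI1), 3 of them higher and 1 lower, where 37.9% of all tested genes did not overlap, 10.2% higher and 27.6% lower. They did not overlap for 4 genes in DOCA plus JK07 against DOCA (NRG4, HBEGF, ERRFI1, LRIG1), 1 higher and 3 lower, with a background of 40.1%, 30.3% higher and 9.82% lower. This held for 0 genes in DOCA plus JK07 against control, with a background of 5.81%, 3.37% higher and 2.45% lower.

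The libraries differed in usable depth along the same lines as the groups. Between 77.6% and 90.8% of each library's 28.1 to 106.4 M (mega) estimated counts lay on 2 scaffolds of ribosomal RNA. Outside these and the mitochondrial genome, DOCA plus JK07 had 9.03 to 12.9 M, the 2 DOCA libraries 6.87 and 3.30 M, and control 8.67 to 13.9 M. The mitochondrial genome took 4.398 to 8.26% of the counts outside ribosomal RNA in DOCA plus JK07, 2.58 and 0.488% in DOCA, and 3.69 to 5.57% in control. The TMM factor was 0.511 in library 6 and 0.871 to 1.35 in the other 9. DOCA libraries 6 and 7 listed 24.2% and 28.1% of the 13480 expressed genes at 0, against 1.02 to 5.78% in the other 8 libraries. In each library the smallest TPM (a level per transcript length, scaled to a common total) corresponded to a coverage of 1. This was no strict minimum for the listed coverage of a gene: 2.51 to 8.81% of coverages above 0 lay under 1, that of EGFR in library 6 (0.195) among them. A gene listed at 0 was not shown to be absent. Lower depth and DOCA therefore cannot be told apart for low genes.

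The label of the cells was checked by markers. The 8 cardiomyocyte markers with a name in the files were above 0 in all libraries and summed to 4843 to 7993 CPM in DOCA plus JK07, 5492 and 3310 CPM in DOCA libraries 6 and 7, and 4047 to 4914 CPM in control. The 8 endothelial markers summed to 112 to 174 CPM in DOCA plus JK07, 111 and 185 CPM in DOCA, and 118 to 256 CPM in control, so the groups overlapped. Single markers did move: endothelial EMCN was listed at 0 in both DOCA libraries (adjusted p = 0.000198 for DOCA against control and 0.000307 for DOCA plus JK07 against DOCA), and of 3 tested Schwann cell markers 1 passed lower in DOCA against control and higher in DOCA plus JK07 against DOCA. Mural RGS5 fell by 2.10 in DOCA against control (adjusted p = 0.00608) and rose by 1.65 in DOCA plus JK07 against DOCA (adjusted p = 0.0290). The other 7 endothelial and 5 mural markers did not pass in either comparison. For DOCA against control, PDGFRB, NOTCH3 and KCNJ8 changed by 0.63, 0.33 and 0.18, and MYH11 and ACTA2 by -1.19 and -0.58. In sum the 6 mural markers overlapped between groups. They stood at 60.2 to 91.7 CPM in DOCA plus JK07, 61.4 and 65.6 in DOCA and 49.0 to 97.0 in control. EMCN, RGS5 and the Schwann cell marker follow the pattern of NRG4, and the part of other cells in the NRG4 values was not tested. The 7 fibroblast markers also overlapped, at 564 to 1438 CPM in DOCA plus JK07, 554 and 2167 CPM in DOCA, and 567.9 to 2278 CPM in control. The 3 mesothelial markers with a name in the files summed to 1.51 to 26.0 CPM in DOCA plus JK07, 5.60 and 116 CPM in DOCA, and 6.30 to 25.3 CPM in control, so library 7 held the highest level. In such bulk libraries fewer cells of a type and less RNA per cell cannot be told apart.

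**Figure D1:**
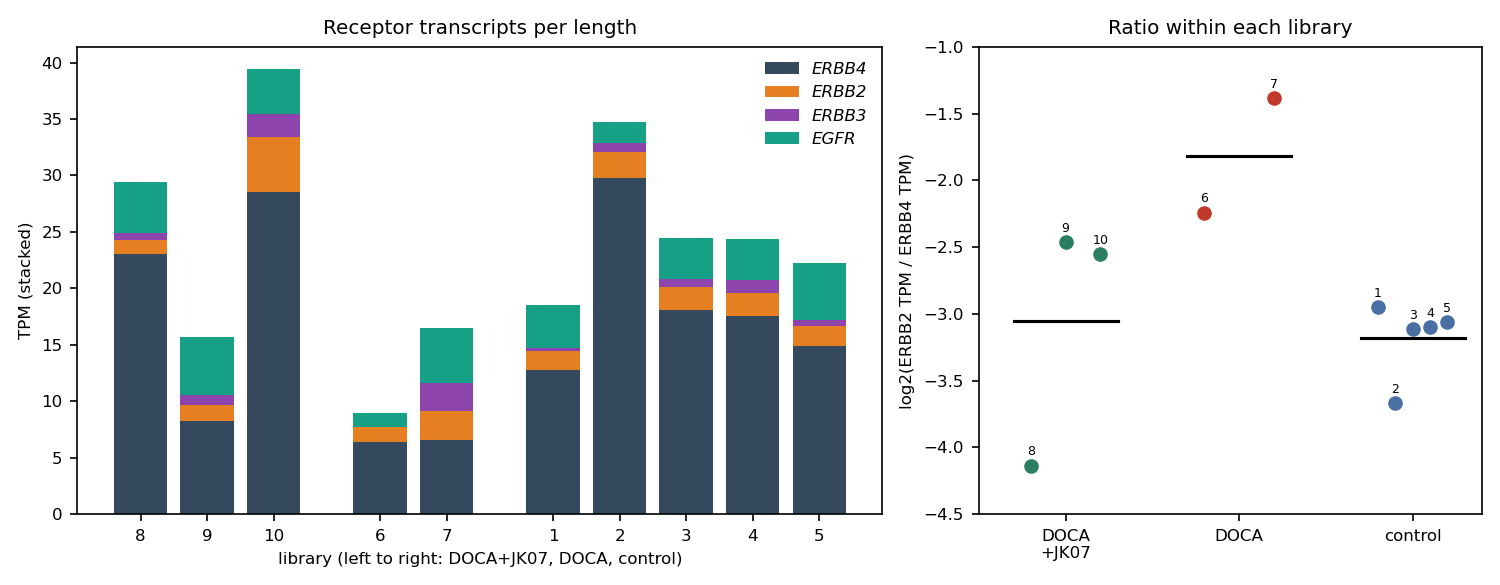
Left, TPM of the 4 ERBB receptors stacked in 1 bar per library, from DOCA plus JK07 on the left through DOCA to control on the right; right, the log2 ratio of ERBB2 to ERBB4 TPM in each library, with a bar at the group mean and the library number beside each point. The ERBB4 part of the bars is 8.21 to 28.5 TPM in DOCA plus JK07, 6.39 and 6.57 TPM in DOCA, and 12.8 to 29.8 TPM in control, and the ratios of both DOCA libraries (-2.24 and -1.39) lie above the others.

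Per length, ERBB4 and LRIG1 were the most abundant members in control. On the TPM scale LRIG1 stood at 20.0 ± 4.13 and ERBB4 at 18.6 ± 6.59 in control (SD, n = 5), at the 98.0th and 97.8th percentile of 12391 named tested genes. ERRFI1 followed at 5.76 ± 2.10 TPM, RNF41 at 3.91 ± 0.707 TPM and EGFR at 3.59 ± 1.12 TPM. The 5 lowest were ERBB2 at 1.98 ± 0.270, NRG1 at 1.41 ± 0.623, NRG4 at 0.803 ± 0.0864, HBEGF at 0.775 ± 0.441 and ERBB3 at 0.688 ± 0.287 TPM. Of the neighbours in this order, ERBB4 and ERRFI1 did not overlap in control, and ERBB4 exceeded ERRFI1 in 5 of 5 libraries. The other 8 pairs of neighbours overlapped. In DOCA, ERRFI1 had the highest mean TPM of the 10 genes (19.1 ± 12.6, SD, n = 2), with LRIG1 at 17.7 and ERBB4 at 6.48 TPM, and ERRFI1 exceeded LRIG1 in 1 of the 2 libraries.

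ERBB4, the receptor that JK07 is said to activate, lies on chromosome 15 from 113974437 to 115096565 on the minus strand (Sscrofa11.1, ENSSSCG00000016160). It stood at 53.7, 25.9 and 53.8 CPM in DOCA plus JK07 libraries 8 to 10, at 34.5 and 19.8 CPM in DOCA libraries 6 and 7, and at 34.1, 78.1, 54.0, 50.6 and 40.1 CPM in control libraries 1 to 5. The groups overlapped, since DOCA library 6 lay above control library 1 and DOCA plus JK07 library 9 lay between the DOCA libraries. The log2 change was -0.92 for DOCA against control (SE 0.42, 95% interval -1.87 to 0.03, adjusted p = 0.153), -1.38 without library 6 and -0.58 without library 7. It was 0.71 for DOCA plus JK07 against DOCA (SE 0.45, interval -0.30 to 1.72, adjusted p = 0.316), 1.17 without library 6 and 0.37 without library 7. It was -0.21 for DOCA plus JK07 against control (SE 0.35, interval -1.004 to 0.588, adjusted p = 1.00). Against the median of all tested genes, the DOCA change of ERBB4 was -0.29.

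On the TPM scale ERBB4 did pass, as did many genes in the same direction. With limma on log2(TPM + 1), its difference was -1.33 for DOCA against control (adjusted p = 0.0299) and 1.32 for DOCA plus JK07 against DOCA (adjusted p = 0.0435). On that scale 4933 genes passed lower and 258 higher for DOCA against control, and 5536 higher and 90 lower for DOCA plus JK07 against DOCA. In TPM, DOCA libraries 6 and 7 stood at 6.39 and 6.57, below the lowest control library at 12.8. TPM here is a share of a total that includes ribosomal RNA. The CPM total includes it too, but is adjusted by the TMM factor, and TPM is not.

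ERBB2, the partner receptor on chromosome 12 from 22590725 to 22621351, stood at 3.98, 6.12 and 12.0 CPM in DOCA plus JK07, at 9.50 and 9.87 CPM in DOCA and at 5.76, 7.99, 8.11, 7.70 and 6.25 CPM in control. In CPM both DOCA libraries lay above the 5 control libraries, and the DOCA plus JK07 libraries lay on both sides of them. In TPM, DOCA library 6 (1.35) lay below the control range of 1.65 to 2.34 and library 7 (2.52) above it. The log2 change was 0.43 for DOCA against control (SE 0.36, interval -0.38 to 1.25, adjusted p = 0.391) and -0.40 for DOCA plus JK07 against DOCA (SE 0.40, interval -1.29 to 0.50, adjusted p = 0.531). Without library 10, which held the highest value, the change of DOCA plus JK07 against DOCA was -1.0 (adjusted p = 0.0449).

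The balance of ERBB2 to ERBB4 was taken within each library, where scaling between libraries cancels. The log2 ratio of ERBB2 to ERBB4 TPM was -4.14, -2.46 and -2.55 in DOCA plus JK07, -2.24 and -1.39 in DOCA, and -2.95, -3.67, -3.12, -3.10 and -3.06 in control. Both DOCA libraries lay above all other 8 libraries, so ERBB4 exceeded ERBB2 by the least there. The mean ratio was 1.37 higher in DOCA than in control on the log2 scale (2.58-fold). In an exact two-sided permutation test p was 0.0952, the smallest that 2 against 5 libraries can give (0.286 adjusted over the 3 comparisons). It was -1.24 in DOCA plus JK07 against DOCA (exact p = 0.2, the smallest possible, 0.3 adjusted) and 0.13 in DOCA plus JK07 against control (exact p = 0.750, 0.750 adjusted, smallest possible 0.0357). With each library left out in turn, the difference ranged from 0.94 to 1.79 for DOCA against control and from -1.66 to -0.69 for DOCA plus JK07 against DOCA. ERBB4 made up 78.3, 52.2 and 72.4% of the summed TPM of the 4 receptors in DOCA plus JK07, 71.0 and 39.9% in DOCA, and 68.8, 85.7, 73.9, 72.1 and 66.9% in control, with overlapping groups.

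ERBB3 and EGFR did not pass in any of the 3 comparisons. ERBB3, on chromosome 5 from 21474475 to 21495038, stood at 1.59, 3.31 and 5.00 CPM in DOCA plus JK07, at 0 and 9.57 CPM in DOCA, and at 1.14, 2.49, 2.75, 4.05 and 1.81 CPM in control. The 2 DOCA libraries were thus the lowest and the highest of the 10. Its log2 change for DOCA against control was 0.96 (SE 1.27, adjusted p = 0.608), and 1.96 without library 6 (adjusted p = 0.0486). Leaving out library 7 gave -10.5 (adjusted p = 0.00297), a fit that rests on the value of 0. The direction thus depended on which DOCA library was kept. Without library 7 the fit of DOCA plus JK07 against DOCA passed the other way (adjusted p = 0.00282). At the mean control level, library 6 would have reached a coverage of 1.34, near the coverage of 1 of the smallest listed TPM. Library 7, with the high ERBB3 value, was also the library with 116 CPM of mesothelial markers, and the part of other cells in the ERBB3 level was not tested.

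EGFR, on chromosome 9 from 139300022 to 139475589, ranged from 8.92 to 19.7 CPM in DOCA plus JK07, stood at 8.16 and 17.7 CPM in DOCA, and ranged from 5.99 to 16.4 CPM in control. Its log2 change was 0.11 for DOCA against control (interval -0.89 to 1.10, adjusted p = 0.885) and 0.09 for DOCA plus JK07 against DOCA (interval -0.999 to 1.19, adjusted p = 0.941). These intervals leave room for a change of either sign. An unnamed identifier overlaps EGFR on the same strand, so reads there are uncertain.

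**Figure D2:**
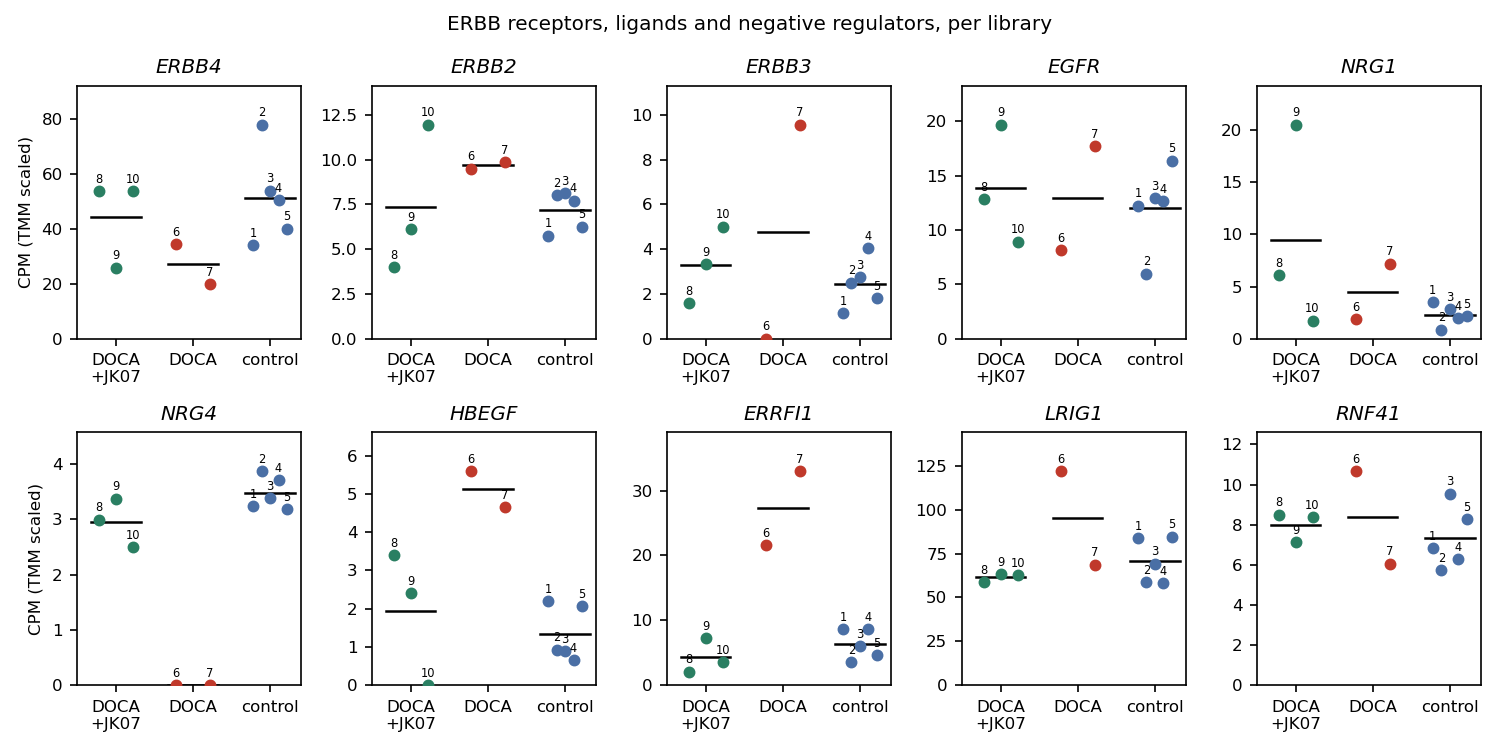
CPM of the 10 genes in each library, with DOCA plus JK07 on the left, DOCA in the middle and control on the right; each point is 1 library, with its number, and the bar is the group mean. ERRFI1 stands at 21.6 and 33.0 CPM in DOCA, above the 8 other libraries, and NRG4 is at 0 in both DOCA libraries.

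Among the ligands, NRG4 was the one that passed. NRG4, on chromosome 7 from 56167959 to 56311270, stood at 2.99, 3.37 and 2.50 CPM in DOCA plus JK07, was listed at 0 in both DOCA libraries, and stood at 3.24, 3.87, 3.39, 3.71 and 3.18 CPM in control. It passed lower in DOCA than in control (adjusted p = 7.48e-06, 0.0702 with quality weights per library) and higher in DOCA plus JK07 than in DOCA (adjusted p = 9.97e-06, 0.135 with quality weights). No fold was read. For NRG4 a coverage of 1 corresponds to 2.21 CPM in library 6 and 2.89 CPM in library 7. The mean control level would have given a coverage of 1.58 in library 6 and 1.21 in library 7, near that of the smallest listed TPM, so the values of 0 do not measure NRG4. NRG4 overlaps FBXO22 on the other strand, and the sources used here do not give the strand setting of the counting.

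NRG1, the main cardiac neuregulin, lies on chromosome 15 from 52630679 to 52839505. It stood at 6.11, 20.6 and 1.70 CPM in DOCA plus JK07, at 1.84 and 7.19 CPM in DOCA, and at 3.47, 0.842, 2.85, 1.96 and 2.16 CPM in control. The 3 groups overlapped, and the 3 DOCA plus JK07 libraries spanned a 12.1-fold range. Its log2 change was 2.07 for DOCA plus JK07 against control (SE 0.75, unadjusted p = 0.0227, adjusted p = 1.00), and 0.79 without library 9, which held the value of 20.6 CPM. It was 1.00 for DOCA against control (SE 0.85, adjusted p = 0.407) and 1.07 for DOCA plus JK07 against DOCA (SE 0.99, adjusted p = 0.497). The first of these 2 was -0.30 without library 7, and the second was -0.21 without library 9.

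HBEGF, a ligand released from the membrane by proteases, lies on chromosome 2 from 142102458 to 142115174. It stood at 3.40, 2.41 and 0 CPM in DOCA plus JK07, at 5.60 and 4.65 CPM in DOCA, and at 2.19, 0.923, 0.880, 0.654 and 2.07 CPM in control. In CPM both DOCA libraries lay above the 8 others. In TPM, DOCA library 6 (1.64) lay below DOCA plus JK07 library 8 (2.29). Library 7 stood at 2.43 TPM, and the highest control value was 1.29 TPM. The log2 change for DOCA against control was 1.93 (3.81-fold, SE 1.19, interval -0.77 to 4.63, adjusted p = 0.276), and for DOCA plus JK07 against DOCA it was -1.40 (SE 1.36, adjusted p = 0.521). The DOCA change passed when library 10, which was at 0, was left out (adjusted p = 0.0206) and when control and DOCA were fitted without the third group (adjusted p = 0.0366).

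Other ligands of the family were scarce. Of 8 further EGF-family ligands in the files, 1 (EGF) passed the filter on low counts and did not pass any comparison. TGFA, AREG, EREG, NRG2 and NRG3 were listed at 0 in all 10 libraries.

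ERRFI1, the inhibitor of the receptor kinases, is a gene that growth factor and stress signals are known to induce. It lies on chromosome 6 from 68669153 to 68682623 on the minus strand (ENSSSCG00000035774), and no other identifier overlaps it. It stood at 2.07, 7.23 and 3.55 CPM in DOCA plus JK07, at 21.6 and 33.0 CPM in DOCA, and at 8.62, 3.49, 6.01, 8.66 and 4.65 CPM in control. In CPM both DOCA libraries lay above all 8 others, whose highest value was 8.66 CPM. In TPM both also lay above them, but library 6 by less, at 10.2 TPM against 8.23 TPM in control library 1. DOCA plus JK07 and control overlapped. The mesothelial markers summed to 116 CPM in library 7, where ERRFI1 was at 33.0 CPM. They summed to 5.60 CPM in library 6, where ERRFI1 was at 21.6 CPM. The part of other cells in the ERRFI1 level was not tested.

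ERRFI1 rose in DOCA against control by 2.12 on the log2 scale (SE 0.47, interval 1.05 to 3.19, adjusted p = 0.0104), with means of 27.3 ± 8.05 CPM in DOCA (SD, n = 2) and 6.29 ± 2.33 CPM in control (SD, n = 5). Relative to the median of all tested genes the change was 2.75. With limma on log2(TPM + 1) and log2(TPM + 0.1) the change was smaller, at 1.47 and 1.62 (adjusted p = 0.0147 and 0.0230). ERRFI1 fell by 2.67 in DOCA plus JK07 against DOCA (SE 0.55, adjusted p = 0.00854), with means of 4.28 ± 2.66 CPM in DOCA plus JK07 (SD, n = 3) and 27.3 ± 8.05 CPM in DOCA. On the 2 TPM scales that change was -1.83 and -2.06. DOCA plus JK07 against control gave -0.55 (SE 0.45, interval -1.57 to 0.46, adjusted p = 1.00). Without library 7 the DOCA change was 1.78 (adjusted p = 0.0559), and under quality weights per library adjusted p was 0.0894 for DOCA against control and 0.131 for DOCA plus JK07 against DOCA. When DOCA plus JK07 and DOCA were fitted without control, adjusted p was 0.0591.

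LRIG1, on chromosome 13 from 47909011 to 48027384, stood at 58.8, 63.2 and 62.6 CPM in DOCA plus JK07, at 122 and 68.7 CPM in DOCA, and at 84.0, 58.8, 69.2, 58.2 and 84.6 CPM in control. In CPM DOCA library 6 was the highest of the 10 libraries, and the 3 DOCA plus JK07 libraries lay within a 1.07-fold range. In TPM library 6 stood at 17.6, within the control range of 15.7 to 24.5. DOCA plus JK07 ranged from 15.6 to 25.8 TPM. The log2 change was -0.63 for DOCA plus JK07 against DOCA (SE 0.28, unadjusted p = 0.0496, adjusted p = 0.166), where DESeq2 gave an adjusted p of 0.0217. Without library 7 it was -0.98 (adjusted p = 0.0238) and without library 6 -0.16. The change was 0.43 for DOCA against control (SE 0.25, adjusted p = 0.259), 0.78 without library 7 (adjusted p = 0.0431) and -0.05 without library 6. LRIG1 overlaps SLC25A26 on the other strand at one end.

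RNF41, the ligase for ERBB3, lies 101 kb from ERBB3 on chromosome 5 (21596306 to 21624569), with 7 gene identifiers between them. It stood at 8.50, 7.12 and 8.36 CPM in DOCA plus JK07, at 10.7 and 6.05 CPM in DOCA, and at 5.72 to 9.54 CPM in control. In CPM DOCA library 6 was the highest of the 10, and library 7 lay within the control range. In TPM library 6 was the lowest of the 10 (2.93), with library 7 at 2.98 and control at 3.23 to 4.73. Its log2 changes were 0.19 for DOCA against control (interval -0.41 to 0.80, adjusted p = 0.630), -0.07 for DOCA plus JK07 against DOCA (interval -0.73 to 0.60, adjusted p = 0.927) and 0.12 for DOCA plus JK07 against control (interval -0.41 to 0.65, adjusted p = 1.00).

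**Figure D3:**
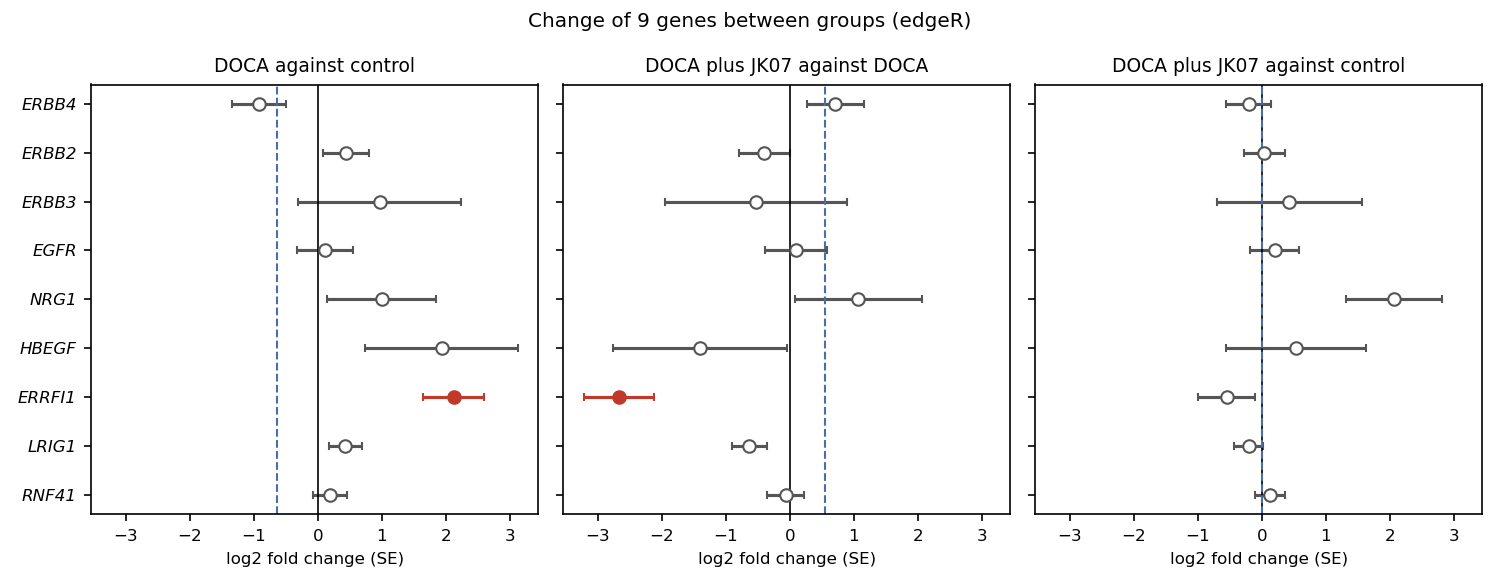
Log2 change in CPM of 9 genes in the 3 comparisons, with bars of 1 SE on each side, filled red where the adjusted p was under 0.05; the dashed line is the median of all tested genes, and NRG4 is left out because it was listed at 0 in both DOCA libraries. ERRFI1 stands at 2.12 for DOCA against control and at -2.67 for DOCA plus JK07 against DOCA, and at -0.55, not passed, for DOCA plus JK07 against control.

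Genes around the receptors were taken from 4 lists of 49 genes in all (other ligands, shedding and cleavage, receptor turnover, adaptors and effectors), of which 42 passed the filter on low counts. For DOCA against control, 4 passed higher, 11 lower and 27 did not pass (of all tested genes 5.65% passed higher and 19.1% lower), with a median log2 change of -0.56 against -0.63 over all tested genes. For DOCA plus JK07 against DOCA, 9 passed higher, 2 lower and 31 did not pass (of all tested genes 14.6% higher and 2.26% lower), with a median of 0.50 against 0.55. None passed (0 of 42) for DOCA plus JK07 against control, with a median of -0.13; 4 had an unadjusted p under 0.05, and DESeq2, quality weights and both TPM scales called 0. Quality weights per library also called 0 of the 42 in the other 2 comparisons. The median over the 42 genes lay close to that of all tested genes, while the single lists lay on both sides of it. For DOCA against control the medians were -0.24 for shedding and cleavage, -1.07 for receptor turnover and -0.20 for adaptors and effectors, and for DOCA plus JK07 against DOCA they were 0.32, 0.90 and 0.086 in that order of lists.

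In the list of shedding and cleavage (12 genes tested), 2 passed higher and 1 lower in DOCA against control, where 5.65% of all tested genes passed higher and 19.1% lower. In DOCA plus JK07 against DOCA 2 passed higher and 1 lower, where 14.6% of all tested genes passed higher and 2.26% lower. RHBDF2, one of the rhomboid-like proteins that carry the shedding protease ADAM17 to the cell surface, averaged 1.67 ± 0.216 CPM in DOCA plus JK07, 6.81 ± 1.82 CPM in DOCA and 2.30 ± 0.529 CPM in control. Its log2 change was 1.56 for DOCA against control (adjusted p = 0.00278) and -2.03 for DOCA plus JK07 against DOCA (adjusted p = 0.00146). On log2(TPM + 1) neither call held (adjusted p = 0.0693 and 0.0509). Its relative RHBDF1 rose by 1.39 in DOCA against control (adjusted p = 0.0104, 0.0544 without library 7 and 0.106 on log2(TPM + 1)). BACE1, a protease that cleaves NRG1 in nerve, fell by 0.91 in DOCA against control (adjusted p = 0.0140, 0.0672 without library 6 and 0.0601 with upper quartile scaling). It rose by 1.08 in DOCA plus JK07 against DOCA (adjusted p = 0.0102, 0.0861 with these 2 groups alone). NCSTN, a subunit of the gamma-secretase that cleaves ERBB4, rose by 0.92 in DOCA plus JK07 against DOCA (adjusted p = 0.0349), a call lost when any 1 of 7 libraries (1 to 5, 7 or 10) was left out. ADAM17 itself averaged 9.61 CPM in DOCA plus JK07, 12.9 CPM in DOCA and 12.0 CPM in control and did not pass in any of the 3 comparisons.

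In the list of receptor turnover (13 genes tested), 5 passed lower and 0 higher in DOCA against control, where 19.1% of all tested genes passed lower and 5.65% higher. In DOCA plus JK07 against DOCA 3 passed higher and 0 lower, where 14.6% of all tested genes passed higher and 2.26% lower. The ubiquitin ligase ITCH averaged 13.0 ± 2.18 CPM in DOCA plus JK07, 4.52 ± 0.195 CPM in DOCA and 12.9 ± 0.642 CPM in control. Its log2 change was -1.51 for DOCA against control (adjusted p = 0.000195) and 1.53 for DOCA plus JK07 against DOCA (adjusted p = 0.000272). The related ligase WWP1 fell by 1.78 in DOCA against control (adjusted p = 0.000905) and rose by 1.70 in DOCA plus JK07 against DOCA (adjusted p = 0.00178). NEDD4, another ligase of that family, was listed at 0 in both DOCA libraries, with a mean of 8.69 CPM in DOCA plus JK07 and 9.57 CPM in control, and passed in both comparisons. Its values of 0 lie in the 2 shallow libraries and do not show that NEDD4 was absent. LRIG2, a relative of LRIG1, and CBLB, a ligase for active receptors, fell by 1.07 and 1.14 in DOCA against control (adjusted p = 0.0299 and 0.0300). CBLB is named although it fell outside the naming rule, and each of these 2 calls was lost when any 1 of 6 libraries was left out (adjusted p up to 0.116 for LRIG2 and 0.124 for CBLB).

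In the list of adaptors and effectors (16 genes tested), 2 passed higher and 5 lower in DOCA against control, where 5.65% of all tested genes passed higher and 19.1% lower. In DOCA plus JK07 against DOCA 4 passed higher and 1 lower, where 14.6% of all tested genes passed higher and 2.26% lower. PIK3CB, a catalytic subunit of PI3-kinase, was listed at 0 in both DOCA libraries, with means of 4.91 CPM in DOCA plus JK07 and 5.51 CPM in control. These values of 0 do not show that PIK3CB was absent. At the mean control level, PIK3CB would have reached a coverage of 2.57 in library 6 and 1.97 in library 7. SOS1 and SOS2, which couple receptors to Ras, fell by 1.63 (adjusted p = 0.000274) and 1.07 (adjusted p = 0.00524) in DOCA against control, and rose by 1.53 (adjusted p = 0.000592) and 1.06 (adjusted p = 0.00910) in DOCA plus JK07 against DOCA. The SOS2 rise was lost with these 2 groups alone (adjusted p = 0.106) and with upper quartile scaling (0.0501). PIK3R1, a regulatory subunit of PI3-kinase, fell by 1.94 in DOCA against control (adjusted p = 0.00575). In DOCA plus JK07 against DOCA it rose by 1.52 (adjusted p = 0.0284), a call lost without library 1, 2, 4, 8 or 9. The phosphatase PTPN11, named after its values were seen, fell by 0.79 in DOCA against control (adjusted p = 0.0221), a call lost without library 4 or 6. The adaptor GRB2 fell by 1.09 in DOCA plus JK07 against DOCA (adjusted p = 0.0235), a call lost without library 7, 8 or 9 (adjusted p up to 0.110). The 2 genes higher in DOCA than in control were GRB2 and SRC, named after their values were seen, both with a log2 change of 0.79 (adjusted p = 0.0453 and 0.0308). GRB2 in that comparison lost its call without any 1 of 6 libraries and SRC without any 1 of 3.

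**Figure D4:**
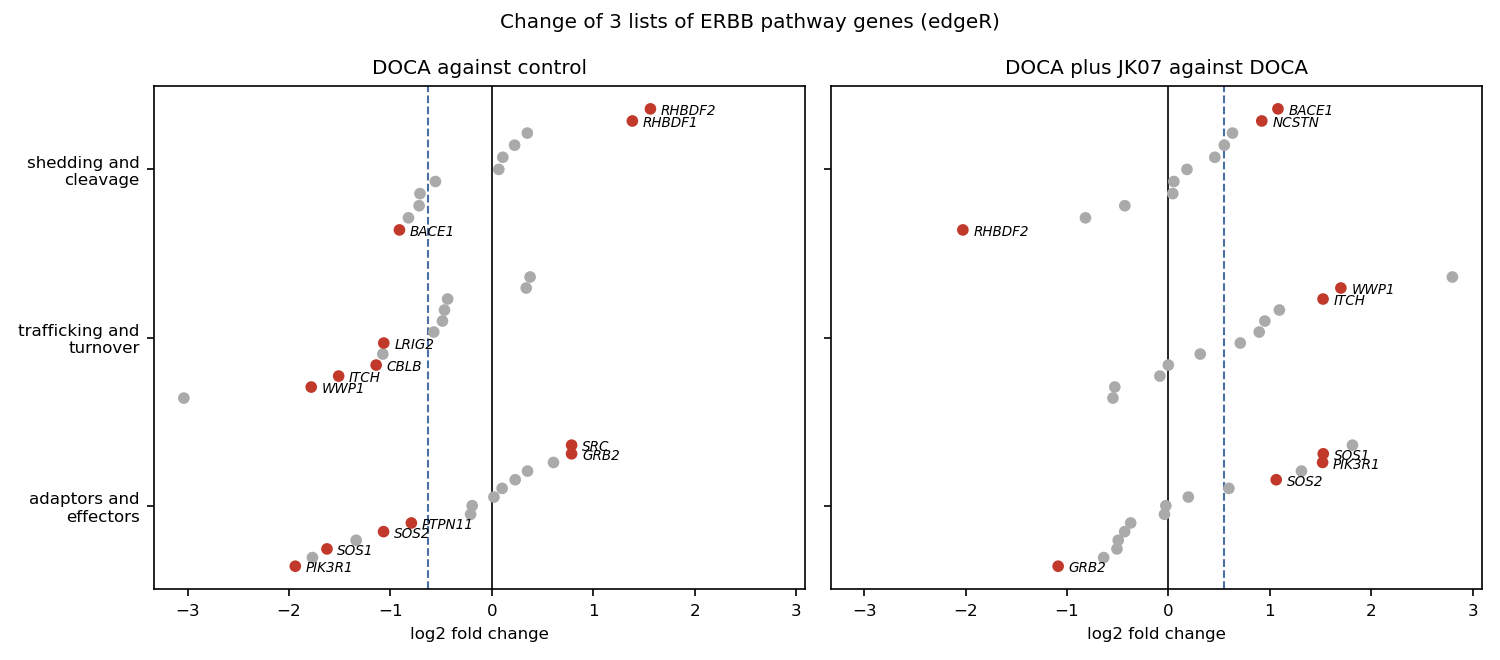
Log2 change of the tested genes of 3 lists (shedding and cleavage, receptor turnover, adaptors and effectors) for DOCA against control on the left and DOCA plus JK07 against DOCA on the right, red and named where the adjusted p was under 0.05; the dashed line is the median of all tested genes, and genes at 0 in a whole group are left out. ITCH, WWP1 and SOS1 lie at -1.51, -1.78 and -1.63 on the left, and RHBDF2 at 1.56.

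The profiles most like those of ERBB4 and ERRFI1 were ranked over the 10 libraries by the root mean square difference of centred log2 CPM, across 12390 named genes. For ERBB4 these were SLC5A3 (0.165), RABGAP1L (0.166), SGCD (0.168), PRKAA2 (0.183) and PTPRK (0.188). PTPRK, a receptor phosphatase, averaged 36.7 CPM in DOCA plus JK07, 23.3 CPM in DOCA and 36.5 CPM in control. For ERRFI1 they were PIM1 (0.393), RNF222 (0.530), C7orf50 (0.549), ZGPAT (0.550) and SMCO4 (0.583), at larger distances than for ERBB4. PIM1, a kinase induced by cytokines, averaged 2.04 CPM in DOCA plus JK07, 9.28 CPM in DOCA and 3.10 CPM in control.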

How the data were processed

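Per the file headers, the authors deposited gene tables of coverage signal, of FPKM and of TPM for each library, and 1 table of whole-number estimated counts with no gene column. Its lines were matched to the sorted gene identifiers: zeros agreed between the tables for 99.998% of values, and for 62.6% after a shift of 1 line. The submitters' processing notes name StringTie, SAMtools and edgeR and the build Sscrofa11.1. The sources used here give no aligner, tool version or strand setting. The deposited FPKM values entered no test. RNA came from a TRIzol extraction and libraries from a TruSeq kit, per the labels' protocols.

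Estimated counts, already whole as deposited, were tested with edgeR 4.0.16 (TMM, filterByExpr, robust quasi-likelihood F test, all 10 libraries in 1 model, 17251 genes), with Benjamini-Hochberg adjustment over all genes. The common biological coefficient of variation was 0.873. SE is the log2 change divided by the square root of F. Alternatives used DESeq2 1.42.0, limma 3.58.1 with quality weights or on log2(TPM + 1) and log2(TPM + 0.1), other scalings, no filter, the 2 groups alone, and each library left out. Only the edgeR test was run on simulated counts. These had less spread than the present data, so its accuracy at the present spread was not shown.

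The members and lists were chosen with earlier results of these data known. From each list at most 4 genes per comparison were to be named, those past adjusted p 0.05 with the lowest first. Named beyond this rule were CBLB, PTPN11, GRB2 and SRC for DOCA against control, and PIK3R1 for DOCA plus JK07 against DOCA. ADAM17 and the other EGF-family ligands were named without having passed. The files named 17640 identifiers, and a reference table named 119 others. A fold against a group at 0 was not read, and overlapping genes are uncertain without a strand setting.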

Additional observations from a re-analysis of the deposited data

Results flagged for a closer look

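Control library 2 stood apart in the log2 ratio of ERBB2 to ERBB4 TPM. Its value was -3.67, against -3.12 to -2.95 in the other 4 control libraries, and its gap to the nearest of them was 0.769 of the whole range, above the critical value of 0.710. It was 1 of 11 groups of values examined in this way, and chance flags about 1 in 20. The same library held the highest ERBB4 level of the control group, at 78.1 CPM.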

How the results depend on the processing

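Across 19 alternatives, 506 of 570 values of the 10 genes kept their direction and their side of the threshold, and the values that changed sign belonged to genes that had not passed. No paired analysis was possible because the sources used here did not link libraries of different groups. The cause of each shift was not tested. With quality weights per library, the called genes numbered 161 (otherwise 4276) for DOCA against control, 5 (otherwise 2915) for DOCA plus JK07 against DOCA and 8 (otherwise 0) for DOCA plus JK07 against control, and 0 of the 10 genes passed in the first and second of these. DESeq2 called 5045 genes for DOCA plus JK07 against DOCA and 115 for DOCA plus JK07 against control, and limma on log2(TPM + 1) and log2(TPM + 0.1) called 5626 and 6084 for DOCA plus JK07 against DOCA. With the 2 groups alone, 1 of the 10 genes passed for DOCA plus JK07 against DOCA, where 2149 of 15773 genes passed (2063 higher, 86 lower). ERBB4 passed on log2(TPM + 1) and log2(TPM + 0.1), at -1.33 and -1.44 for DOCA against control and at 1.32 and 1.42 for DOCA plus JK07 against DOCA.

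For DOCA against control, quality weights turned ERBB3 to -3.47 and EGFR to -0.087. On log2(TPM + 1) and log2(TPM + 0.1), ERBB2 turned to -0.047 and -0.085, EGFR to -0.29 and -0.44, LRIG1 to -0.15 and -0.15 and RNF41 to -0.30 and -0.37, and ERBB3 turned to -0.55 on log2(TPM + 0.1). For DOCA plus JK07 against DOCA, EGFR turned to -0.0163 with DESeq2 size factors, to -0.0162 with the DESeq2 test and to -0.18 with upper quartile scaling, and ERBB3 turned to 3.62 with quality weights. On the 2 TPM scales of that comparison ERBB2 turned to 0.17 and 0.20, ERBB3 to 0.13 and 1.09, LRIG1 to 0.16 and 0.17 and RNF41 to 0.59 and 0.72. For DOCA plus JK07 against control, ERBB2 turned to -0.0039 with DESeq2 size factors, -0.0047 with the DESeq2 test and -0.25 with quality weights, LRIG1 to 0.0162 and 0.0167 on the TPM scales, and HBEGF to -0.22 on log2(TPM + 0.1).

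Leaving out each library in turn gave 2266 to 4449 called genes (4449 without library 7) and 2 to 4 called members for DOCA plus JK07 against DOCA. For DOCA against control the ranges that changed sign were LRIG1 -0.049 to 0.78, RNF41 -0.28 to 0.54, ERBB3 -10.5 to 1.96 (library 6 is at 0), EGFR -0.56 to 0.56 and NRG1 -0.30 to 1.67. Between DOCA plus JK07 and DOCA they were EGFR -0.36 to 0.76, RNF41 -0.41 to 0.40, ERBB3 -1.54 to 10.9 and NRG1 -0.21 to 2.36. Between DOCA plus JK07 and control they were ERBB2 -0.51 to 0.34, HBEGF -0.16 to 1.11, ERBB4 -0.37 to 0.066, EGFR -0.14 to 0.43, ERBB3 -0.0014 to 0.76 and the ERBB2 to ERBB4 ratio -0.17 to 0.67.

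Of the list genes that passed, quality weights removed 15 of 15 calls for DOCA against control and 11 of 11 for DOCA plus JK07 against DOCA; DESeq2's test removed 0 and 0. Upper quartile scaling removed 4 and 3, the 2 groups alone 3 and 5, and each TPM scale 4 (GRB2, RHBDF1, RHBDF2, SRC) and 2 (GRB2, RHBDF2). Depth in libraries 6 and 7 limits the values of low genes such as NRG4 and ERBB3. HBEGF, also a low gene, had a coverage of 6.26 in library 6 and 3.98 in library 7. Its value of 0 was in library 10, where the mean control level would have given a coverage of 2.30.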
